A study of Mus musculus with 6 samples.

Results

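The mitosis and G2/M genes described here are 52 genes of mitotic kinases and cyclins, the spindle checkpoint, the kinetochore, condensin, spindle assembly and cytokinesis, taken by symbol from a fixed list that leaves out the kinesins. All 52 were found among the 35976 genes counted in every culture. RNA was sequenced from dorsal root ganglion (DRG) neuron cultures prepared from the lumbar ganglia of adult C57BL/6 mice of both sexes. After 24 h on coverslips coated with poly-d-lysine and laminin, 3 cultures received vehicle and 3 received HC-HA/PTX3 at 15 µg/mL for a further 24 h, and all 6 were kept in serum-containing medium with added growth factors. HC-HA/PTX3, named for its heavy chain, hyaluronic acid and pentraxin 3 parts, is a matrix material obtained from human amniotic membrane. The comparison asks whether this exposure changed gene expression in the cultures. Vehicle replicates 1, 2 and 3 held 42516054, 42617496 and 54117547 counts in genes, and HC-HA/PTX3 replicates 1, 2 and 3 held 37998071, 37434266 and 38420247. The sources used here do not say whether replicates came from separate mice or dissections, and p-values therefore measure only the spread between these cultures.

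As background, a cell that prepares to divide switches on a shared set of genes late in its cycle. Cyclins A and B activate the kinase Cdk1, condensins compact the chromosomes, kinetochore proteins tie them to the spindle, a checkpoint delays separation until all are attached, and the anaphase-promoting complex then marks cyclins and securin for destruction before the cell is split. Sensory neurons of the adult ganglion are post-mitotic, whereas satellite glia, Schwann cells and fibroblasts of the same tissue can divide in culture.

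Most of these genes were lower after HC-HA/PTX3. Levels are given as CPM, the gene's count scaled to a library of 1000000 counts, with library sizes corrected by the trimmed mean of M-values (TMM). A gene was called lower or higher at an adjusted p under 0.05 with an absolute log2 fold change over 0.5, in a fit that compares treated and vehicle cultures of the same replicate number (edgeR's quasi-likelihood test, p-values adjusted after Benjamini-Hochberg over all 18277 genes tested). All 52 members passed the filter on low counts and were tested, and 47 of them fell, against 984 of all tested genes (5.38%). By the same test 0 members were called higher, against 607 of all tested genes (3.32%), and 1 member was higher at an unadjusted p under 0.05; DESeq2, limma-voom and ComBat-seq followed by limma also called 0 higher. In the edgeR fit with the block 6068 of all tested genes had an unadjusted p under 0.05, in either direction. The median log2 fold change over the 52 members was -1.23, and over all tested genes it was -0.007. In the fit without the block the members' median was -1.194, at -0.776 with vehicle replicate 1 left out and -0.785 with HC-HA/PTX3 replicate 3 left out. Without the replicate block, edgeR called 0 members and 0 genes (0%) lower, although 16 members were lower at an unadjusted p under 0.05, and the smallest adjusted p of a member was 0.309 (edgeR quasi-likelihood test, Benjamini-Hochberg adjustment). In that fit 2089 of the 18277 genes tested had an unadjusted p under 0.05, in either direction. These are bulk samples, in which fewer dividing cells and less RNA per cell cannot be told apart.

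Replicate 3 of both groups stood apart from the other 4 libraries on the first principal component of the tested genes. The members also differed by replicate number. Summed over the 52 members, the level was 2430.1, 1698 and 877 CPM in vehicle replicates 1, 2 and 3 and 997, 978 and 350.4 CPM in HC-HA/PTX3 replicates 1, 2 and 3. Each treated culture was below the vehicle culture of its own number, but vehicle replicate 3 was below treated replicates 1 and 2, so that the groups overlapped. The treated sum was 41.0%, 57.6% and 40.0% of the vehicle sum in replicates 1, 2 and 3. With replicate 3 left out of both groups 49 members were called lower, with replicate 2 left out 48 and with replicate 1 left out 44, against 781 of 18329, 989 of 18479 and 630 of 18510 tested genes in turn.

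Gene by gene the same order of cultures recurred. Vehicle replicate 1 was the highest of the 6 cultures for 47 members, and HC-HA/PTX3 replicate 3 was the lowest for 48. Vehicle replicate 3 was the lowest vehicle culture for 51 members and lay below treated replicate 1 or 2 for 39. The median log2 ratio of vehicle replicate 1 to vehicle replicate 3 was 1.34 over the members and 0.02 over all tested genes, so the spread between vehicle cultures was of about the size of the treatment change. Between treated replicates 1 and 3 the members' median log2 ratio was 1.72. All 3 treated values lay below all 3 vehicle values for 13 members, against 1566 of all tested genes (8.57%), above them for 1 member, Pttg1, against 1725 of all tested genes (9.44%), and the ranges overlapped for 38.

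**Figure D1:**
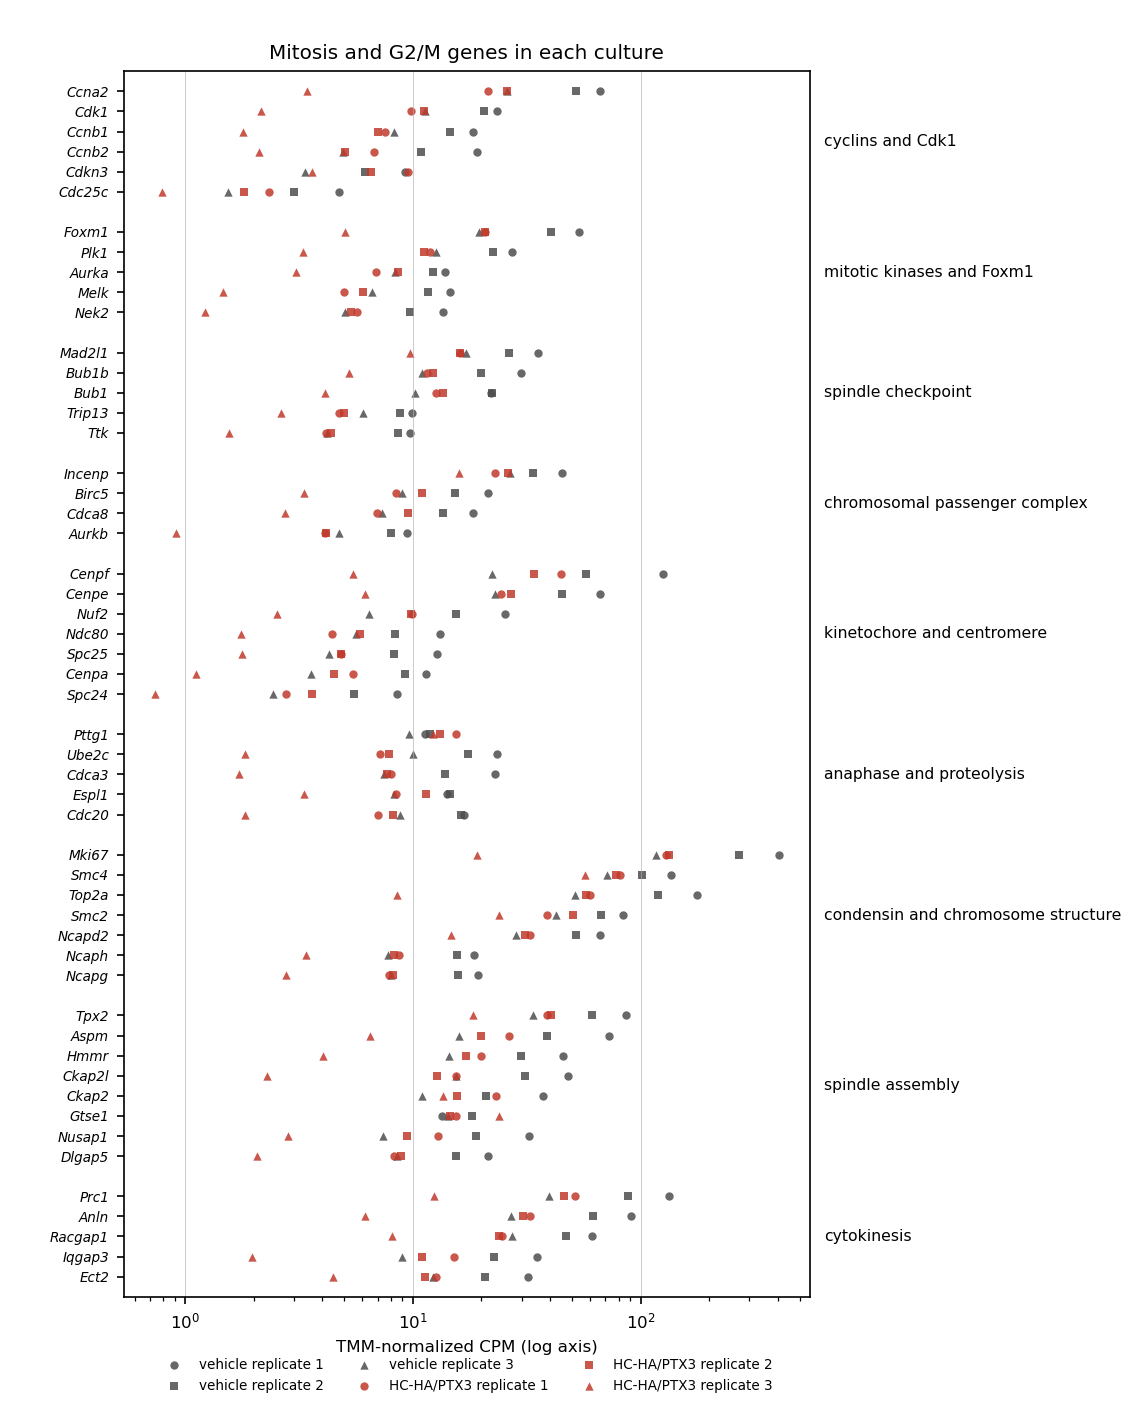
TMM-normalized CPM (log axis) of each of the 52 members in each of the 6 cultures, grouped by role, with vehicle in dark grey, HC-HA/PTX3 in red and the marker shape giving the replicate number. HC-HA/PTX3 replicate 3 (red triangle) is the lowest of the 6 cultures for 48 members and vehicle replicate 1 (grey circle) is the highest for 47.

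Within replicate numbers the change was more even. The treated culture was lower than its vehicle partner in all 3 replicate numbers for 48 members and higher in all 3 for 2, Cdkn3 (each time within counting error) and Pttg1 (in replicate 2 by less than 2 counting errors). Only Ckap2 and Gtse1 were mixed. The median log2 ratio of treated to vehicle over the members was -1.28 in replicate 1, -0.84 in replicate 2 and -1.50 in replicate 3. For each of the 47 called members replicate 2 gave the smallest change, and the largest fall came from replicate 3 for 36 of them and from replicate 1 for 11. Among the called members the log2 fold change ran from -1.80 (Ckap2l) to -0.69 (Incenp), and 38 were below -1. Their standard errors (SE) were 0.08 to 0.25, and their adjusted p-values were 0.000274 to 0.00935 (edgeR quasi-likelihood test, Benjamini-Hochberg adjustment).

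**Figure D2:**
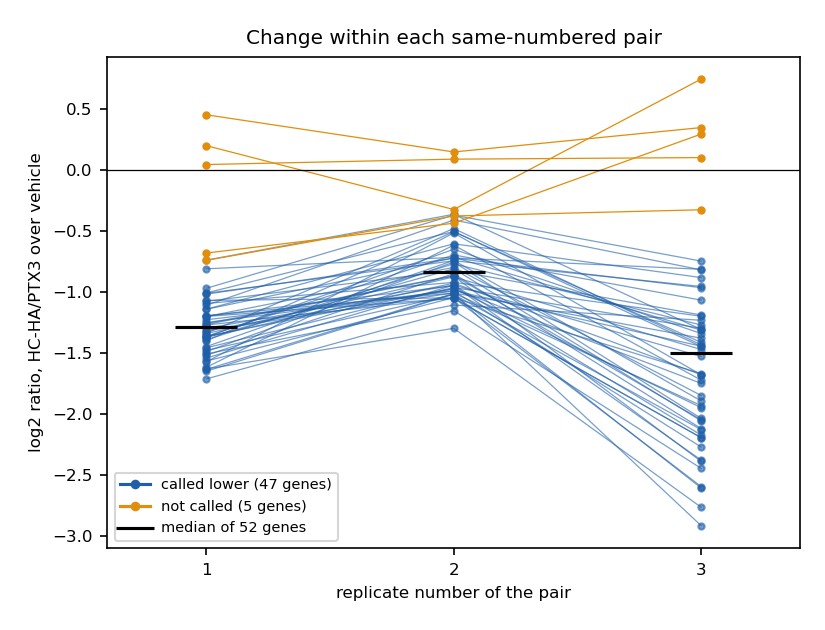
Log2 ratio of HC-HA/PTX3 to vehicle CPM for each member within replicate 1, 2 and 3. The members' median is -1.28, -0.84 and -1.50 in turn, and replicate 2 gives the smallest change of every called member.

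Scaled by transcript length, the most abundant members in the vehicle cultures were a chromosome surface protein, a condensin subunit, a midzone protein and a topoisomerase. Per kilobase of the longest annotated transcript the mean vehicle level was 26.2 CPM for Mki67, 23.8 CPM each for Smc4 and Prc1, 22.1 CPM for Top2a and 16.2 CPM for Ccna2. The lowest was 1.17 CPM per kilobase for Cdc25c, a phosphatase that activates Cdk1, and the median over members was 5.51. Mki67 alone gave 15.8% of the summed vehicle CPM. No member was near the limit of detection: the lowest count of any member in any culture was 29, and 3 counts correspond to at most 0.0808 CPM. Top2a and Cdc25c were named for this length-scaled comparison after their values were seen.

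All 6 genes of the cyclin and Cdk1 group were measured, and 5 fell, with a median log2 fold change of -1.36. Summed over the group, the level was 141, 107 and 55.3 CPM in vehicle and 57.4, 57.5 and 13.9 CPM in treated replicates 1, 2 and 3. Ccna2, the gene of cyclin A2 (chr3:36564865-36572150, minus strand, mm10), stood at 66.4, 52.0 and 25.9 CPM in vehicle replicates 1, 2 and 3 and at 21.4, 25.8 and 3.43 CPM in the treated replicates. Every treated culture lay below every vehicle culture, though treated replicate 2 and vehicle replicate 3 were nearly level. Ccna2 had the highest level and the largest fall of its group, and fell by 1.75 ± 0.25 (SE) on the log2 scale (edgeR quasi-likelihood test, Benjamini-Hochberg adjusted p = 0.0017). Cdkn3, a phosphatase that acts on cyclin-dependent kinases, read 9.26, 6.15 and 3.36 CPM in vehicle and 9.56, 6.54 and 3.61 CPM in treated replicates 1, 2 and 3. The groups overlapped almost completely, and the treated cultures were level with their vehicle partners within counting error, at log2 ratios of 0.046, 0.09 and 0.103 beside counting errors (1 SE, from the counts) of 0.107, 0.128 and 0.16. Its log2 fold change was 0.08 ± 0.13 (SE), short of a call (edgeR quasi-likelihood test, Benjamini-Hochberg adjusted p = 0.708). Without the block Ccna2 was at -1.51, and at -1.018 with HC-HA/PTX3 replicate 3 left out; Cdkn3 was below 0 when vehicle replicate 3 (-0.234) or HC-HA/PTX3 replicate 1 (-0.286) was left out.

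The mitotic kinases and the transcription factor Foxm1 formed a group of 5, all of which fell, with a median log2 fold change of -1.34. Their summed level was 123, 96.6 and 52.1 CPM in vehicle and 50.2, 51.9 and 14.1 CPM in treated replicates. Foxm1, which drives the transcription of many G2 and M phase genes (chr6:128362967-128376146, plus strand, mm10), was measured at 53.5, 40.6 and 19.5 CPM in vehicle and 20.8, 20.7 and 5.05 CPM in treated replicates 1, 2 and 3. Vehicle replicates 1 and 2 were high, treated replicate 3 was low, and vehicle replicate 3 lay just under treated replicates 1 and 2. Foxm1 fell by 1.39 ± 0.15 (SE) on the log2 scale (edgeR quasi-likelihood test, Benjamini-Hochberg adjusted p = 0.000626). Melk, a kinase of dividing progenitor cells, had 14.5, 11.6 and 6.64 CPM in vehicle and 4.98, 6.04 and 1.47 CPM in treated replicates. No treated value reached the lowest vehicle value. Melk fell by 1.49 ± 0.19 (SE) on the log2 scale, the largest fall of the group (edgeR quasi-likelihood test, Benjamini-Hochberg adjusted p = 0.00115). Aurka, the aurora kinase of spindle poles, gave 13.8, 12.2 and 8.38 CPM in vehicle and 6.87, 8.63 and 3.07 CPM in treated replicates. Treated replicate 2 was slightly above vehicle replicate 3, and the other treated values were below the vehicle range. Aurka fell by 0.96 on the log2 scale with an SE of 0.165, the smallest fall of the group (edgeR quasi-likelihood test, Benjamini-Hochberg adjusted p = 0.00386). With HC-HA/PTX3 replicate 3 left out, in the fit without the block, Foxm1, Melk and Aurka were at -0.858, -0.978 and -0.559, from -1.285, -1.389 and -0.889 with all cultures.

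The spindle checkpoint group held 5 genes, and all fell, with a median log2 fold change of -1.02. Together they summed to 107, 86.1 and 48.5 CPM in vehicle and 49.1, 51.3 and 23.3 CPM in treated replicates, so that treated replicates 1 and 2 were level with vehicle replicate 3. Mad2l1, whose protein Mad2 holds back the anaphase-promoting complex (chr6:66535390-66547220, plus strand, mm10), was at 35.5, 26.5 and 17.1 CPM in vehicle and at 16.1, 16.1 and 9.73 CPM in treated replicates. The treated cultures were all below the vehicle cultures, by a narrow gap between vehicle replicate 3 and treated replicates 1 and 2. Mad2l1 fell by 0.89 ± 0.10 (SE) on the log2 scale, the smallest fall of the group (edgeR quasi-likelihood test, Benjamini-Hochberg adjusted p = 0.000907). Ttk, the kinase Mps1 that starts the checkpoint signal, was at 9.71, 8.64 and 4.21 CPM in vehicle and 4.15, 4.35 and 1.55 CPM in treated replicates. Vehicle replicate 3 lay between treated replicates 1 and 2, and treated replicate 3 was the lowest. Ttk fell by 1.20 ± 0.15 (SE) on the log2 scale, the largest fall of the group (edgeR quasi-likelihood test, Benjamini-Hochberg adjusted p = 0.000938).

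The 4 genes of the chromosomal passenger complex, which corrects faulty attachments and later guides cytokinesis, all fell, with a median log2 fold change of -1.07. The complex summed to 94.1, 70.6 and 47.7 CPM in vehicle and 42.5, 50.8 and 22.9 CPM in treated replicates. Incenp, its scaffold (chr19:9872296-9899551, minus strand, mm10), read 45.0, 33.8 and 26.7 CPM in vehicle and 23.0, 26.2 and 15.9 CPM in treated replicates. All treated values were below all vehicle values, with treated replicate 2 close to vehicle replicate 3. Incenp fell by 0.69 ± 0.11 (SE) on the log2 scale, the smallest fall among all called members (edgeR quasi-likelihood test, Benjamini-Hochberg adjusted p = 0.00273). Aurkb, the kinase of the complex, read 9.39, 7.98 and 4.75 CPM in vehicle and 4.10, 4.14 and 0.914 CPM in treated replicates. Here too the treated cultures were all lower, and treated replicate 3 was far below the rest. Aurkb fell by 1.40 ± 0.22 (SE) on the log2 scale (edgeR quasi-likelihood test, Benjamini-Hochberg adjusted p = 0.00277). In the fit without the block it was at -1.272, and at -0.832 when HC-HA/PTX3 replicate 3 was left out.

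Kinetochore and centromere genes numbered 7, and all fell, with a median log2 fold change of -1.22. Their sum was at 263, 149.6 and 67.5 CPM in vehicle, beside 96.4, 89.8 and 19.5 CPM in treated replicates. Cenpf, a large protein of the outer kinetochore (chr1:189640606-189688086, minus strand, mm10), stood at 125, 57.5 and 22.3 CPM in vehicle and at 44.6, 34.1 and 5.43 CPM in treated replicates. Vehicle replicate 1 was far above the other cultures, and vehicle replicate 3 was below treated replicates 1 and 2. Cenpf, with the highest CPM and the largest fall of the group, fell by 1.38 ± 0.18 (SE) on the log2 scale (edgeR quasi-likelihood test, Benjamini-Hochberg adjusted p = 0.00112). Nuf2, a subunit of the Ndc80 complex that binds microtubules, was measured at 25.4, 15.4 and 6.43 CPM in vehicle and 9.86, 9.84 and 2.54 CPM in treated replicates. Vehicle replicate 3 lay inside the treated range, and vehicle replicates 1 and 2 above it. Nuf2 fell by 1.10 ± 0.15 (SE) on the log2 scale, the smallest fall of the group (edgeR quasi-likelihood test, Benjamini-Hochberg adjusted p = 0.00143). Without the block Cenpf and Nuf2 were at -1.284 and -1.087, at -0.505 and -0.556 with vehicle replicate 1 left out and at -0.786 and -0.668 with HC-HA/PTX3 replicate 3 left out. All 7 overlapped between the groups.

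Of 5 genes of anaphase and regulated proteolysis, 4 fell, and the median log2 fold change was -1.43. The group summed to 88.5, 74.2 and 44.1 CPM in vehicle and 46.2, 48.4 and 20.9 CPM in treated replicates. Ube2c, the ubiquitin-conjugating enzyme of the anaphase-promoting complex (chr2:164769898-164778822, plus strand, mm10), was at 23.4, 17.5 and 9.97 CPM in vehicle and at 7.14, 7.89 and 1.83 CPM in treated replicates. The groups did not overlap, and treated replicate 3 was the lowest by a wide margin. Ube2c fell by 1.70 ± 0.19 (SE) on the log2 scale (edgeR quasi-likelihood test, Benjamini-Hochberg adjusted p = 0.000851). Pttg1, which encodes securin, the inhibitor of separase, was at 11.3, 11.9 and 9.61 CPM in vehicle and at 15.5, 13.2 and 12.2 CPM in treated replicates. All treated cultures were above all vehicle cultures, opposite to the rest of the group, and the vehicle cultures were close together. The log2 fold change of Pttg1 was 0.32 ± 0.11 (SE), under the fold threshold and short of the p threshold (edgeR quasi-likelihood test, Benjamini-Hochberg adjusted p = 0.0664).

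Condensin and chromosome structure genes numbered 7, of which 6 fell, with a median log2 fold change of -1.06. This was the most abundant group in CPM, at 905, 639 and 325 in vehicle and 358, 366 and 129 in treated replicates. Mki67, the Ki-67 protein that coats mitotic chromosomes and marks cycling cells (chr7:135689784-135716361, minus strand, mm10), had 405, 269 and 116 CPM in vehicle and 129, 133 and 19.1 CPM in treated replicates. Vehicle replicate 3 lay just under treated replicates 1 and 2, and treated replicate 3 was several times lower than every other culture. Mki67 fell by 1.72 ± 0.22 (SE) on the log2 scale, the largest fall of the group (edgeR quasi-likelihood test, Benjamini-Hochberg adjusted p = 0.00104). Smc4, a core ATPase of condensin, had 136, 101 and 71.1 CPM in vehicle and 81.6, 77.9 and 56.8 CPM in treated replicates. The treated values were lower within each replicate number, while the ranges overlapped. Its log2 fold change of -0.48 ± 0.08 (SE) was under the fold threshold although it passed the p threshold (edgeR quasi-likelihood test, Benjamini-Hochberg adjusted p = 0.00407). Smc4 was called with replicate 2 or replicate 3 left out, at a log2 fold change of -0.54 in both. Mki67 and Smc4 stood at -1.49 and -0.512 without the block and at -1.038 and -0.258 when vehicle replicate 1 was then left out; Mki67 was then at -0.998 without HC-HA/PTX3 replicate 3, and Smc4 at -0.723 without vehicle replicate 3.

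The spindle assembly group held 8 genes, 6 of which fell, with a median log2 fold change of -1.23. It summed to 356, 235 and 121 CPM in vehicle and 161, 138 and 73.4 CPM in treated replicates. Tpx2, which activates Aurora A and nucleates spindle microtubules (chr2:152847964-152895321, plus strand, mm10), was at 86.0, 61.3 and 33.7 CPM in vehicle and at 39.0, 40.3 and 18.3 CPM in treated replicates. Vehicle replicate 3 was below treated replicates 1 and 2. Tpx2 fell by 0.88 ± 0.10 (SE) on the log2 scale (edgeR quasi-likelihood test, Benjamini-Hochberg adjusted p = 0.000841). Ckap2l, a spindle protein, was at 48.0, 31.2 and 15.5 CPM in vehicle and at 15.5, 12.7 and 2.29 CPM in treated replicates. Treated replicate 1 came level with vehicle replicate 3 at this rounding, just below it, and the rest of the treated cultures were lower. Ckap2l fell by 1.80 ± 0.20 (SE) on the log2 scale, the largest fall of all 52 members (edgeR quasi-likelihood test, Benjamini-Hochberg adjusted p = 0.000851). Tpx2 was at -0.89 without the block and at -0.544 when vehicle replicate 1 was then left out, and Ckap2l at -1.636 and, when HC-HA/PTX3 replicate 3 was left out, -1.155.

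The spindle genes without a call were Gtse1 and Ckap2. Gtse1, a protein of G2 and S phase that binds microtubules, was at 13.4, 18.2 and 14.3 CPM in vehicle and at 15.4, 14.5 and 23.9 CPM in treated replicates. Treated replicate 3, the lowest culture for most members, was the highest for Gtse1, and the groups overlapped. The log2 fold change of Gtse1 was 0.21 ± 0.17 (SE) (edgeR quasi-likelihood test, Benjamini-Hochberg adjusted p = 0.400), and without replicate 3 it was -0.05. Ckap2, a microtubule-associated protein, was at 37.2, 21.0 and 11.0 CPM in vehicle and at 23.2, 15.6 and 13.5 CPM in treated replicates. The treated culture was lower in replicates 1 and 2 and higher in replicate 3, and the ranges overlapped. Ckap2 had a log2 fold change of -0.29 ± 0.16 (SE) (edgeR quasi-likelihood test, Benjamini-Hochberg adjusted p = 0.227). With replicate 3 left out it was called lower, at -0.545 (edgeR quasi-likelihood test, Benjamini-Hochberg adjusted p = 0.00431). In the fit without the block Ckap2 was above 0 when vehicle replicate 1 was left out (0.123), and Gtse1 below 0 when HC-HA/PTX3 replicate 3 was (-0.029).

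All 5 cytokinesis genes fell, with a median log2 fold change of -1.33. Their sum was 352, 240.25 and 115 CPM in vehicle and 137, 123 and 33.1 CPM in treated replicates. Prc1, which bundles the microtubules of the spindle midzone (chr7:80294450-80316259, plus strand, mm10), stood at 133, 88.0 and 39.7 CPM in vehicle and at 51.6, 46.3 and 12.4 CPM in treated replicates. Vehicle replicates 1 and 2 were above every treated culture, and vehicle replicate 3 was below treated replicates 1 and 2. Prc1 fell by 1.31 ± 0.12 (SE) on the log2 scale (edgeR quasi-likelihood test, Benjamini-Hochberg adjusted p = 0.000308). Anln, anillin of the contractile ring, read 91.1, 61.9 and 26.9 CPM in vehicle and 32.7, 30.5 and 6.15 CPM in treated replicates. The order of the cultures was the same as for Prc1. Anln fell by 1.50 ± 0.16 (SE) on the log2 scale, the largest fall of the group (edgeR quasi-likelihood test, Benjamini-Hochberg adjusted p = 0.000587). Ect2, the exchange factor that activates RhoA at the cleavage site, read 31.9, 20.7 and 12.3 CPM in vehicle and 12.6, 11.3 and 4.44 CPM in treated replicates. Only vehicle replicate 3 and treated replicate 1 broke the separation of the groups. Ect2 fell by 1.22 ± 0.13 (SE) on the log2 scale (edgeR quasi-likelihood test, Benjamini-Hochberg adjusted p = 0.000557). Without the block Prc1, Anln and Ect2 were at -1.241, -1.374 and -1.196, and at -0.795, -0.938 and -0.807 when vehicle replicate 1 was left out; Prc1 and Anln were at -0.82 and -0.915 when HC-HA/PTX3 replicate 3 was.

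**Figure D3:**
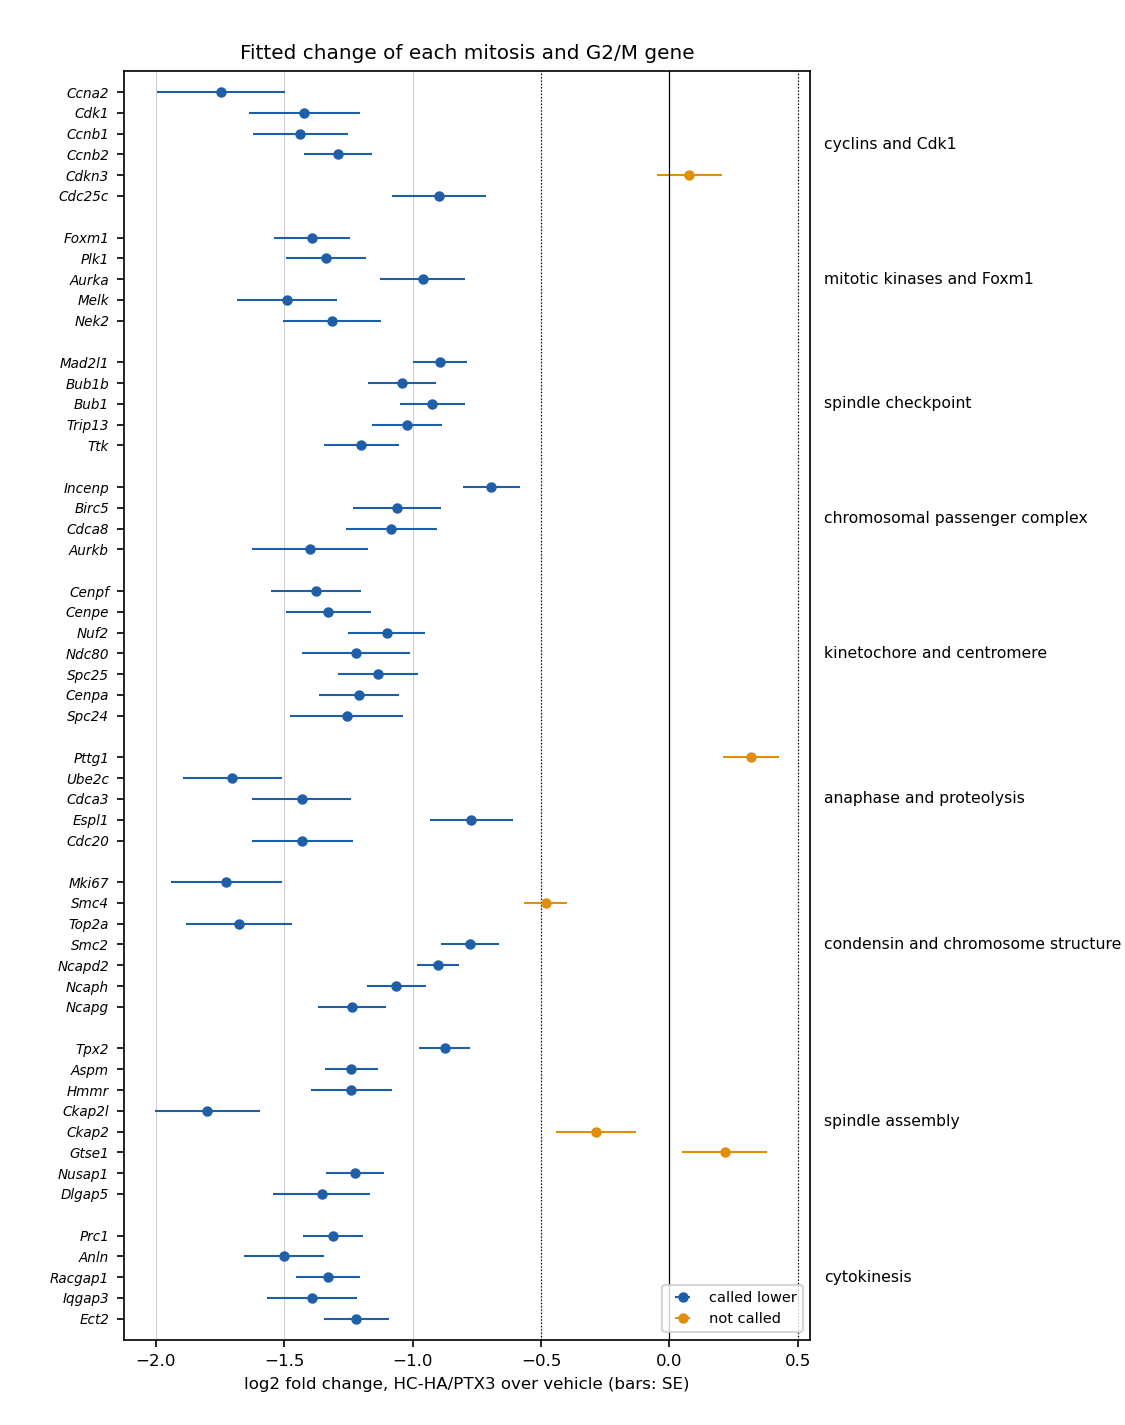
Fitted log2 fold change of each member (HC-HA/PTX3 over vehicle, with the standard error as bar), grouped by role, with the call thresholds as lines. The 47 called members lie between -1.80 and -0.69, and the 5 without a call are Cdkn3, Pttg1, Smc4, Ckap2 and Gtse1.

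The members are scattered over the genome, with 9 on chromosome 2, 5 each on chromosomes 3 and 11, and at most 4 on any other. Exons of 14 members share bases with another annotated gene, mostly on the opposite strand. The largest shares of the member's exon bases were 22.8% for Ube2c with Tnnc2, 13.4% for Ncapg with Lcorl, 12.7% for Cdc25c with Gm3550, 12.5% for Ccna2 with Exosc9 and 11.1% for Prc1 with Rccd1. Ncapg and Cdc25c were named after their values were seen. The strand setting of the counting was not given in the sources used here, so reads of such overlapping genes cannot be told apart in these bases. None of the 5 members without a call has such an overlap in the annotation used.

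Because most of these genes moved together, their promoters were searched for short elements known from cell cycle genes. The cell cycle genes homology region, bound by the MuvB complex, was searched as TTTGAA and TTCGAA, and the CCAAT box, bound by NF-Y, as CCAAT, on both strands of the window from 250 bases before to 50 bases after the RefSeq start (GRCm38.p6). TTCGAA reads the same on both strands and was counted once per position. A window was found for 43 of the 52 members; Ccna2, Cdc25c, Foxm1, Aurkb, Incenp, Spc24, Smc4, Tpx2 and Dlgap5 had none in the table. TTTGAA occurred in 30 of the 43 windows (69.8%), against 18.1% of all 27025 promoter windows of this length. CCAAT occurred in 32 member windows (74.4%) against 37.9% of all, and TTCGAA in 4 (9.30%) against 1.57%. CCAAT together with either 6-base motif stood in 28 member windows (65.1%) and in 7.70% of all. Matches of different motifs overlapped in 1 member window. Among the 4 members without a call that have a window, Cdkn3 and Ckap2 held TTTGAA and CCAAT, Gtse1 held CCAAT alone and Pttg1 held none of these. A match describes the letters of the window and is not shown to be a bound site.

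The promoters of 6 called members are printed for the 250 bases before the start, 5′ to 3′ on the strand of the gene, with every match of the searched motifs in capitals, on either strand (a match on the other strand reads TTCAAA or ATTGG here). They were chosen as the members of highest mean CPM whose stretch holds a searched motif, and the sequences are from RefSeq (GRCm38.p6). They lie at chr7:135716380-135716629 on the minus strand for Mki67, chr11:99024190-99024439 on the minus strand for Top2a, chr7:80294201-80294450 on the plus strand for Prc1, chr4:52438971-52439220 on the plus strand for Smc2, chr1:189688087-189688336 on the minus strand for Cenpf and chr6:125191587-125191836 on the minus strand for Ncapd2.
Mki67: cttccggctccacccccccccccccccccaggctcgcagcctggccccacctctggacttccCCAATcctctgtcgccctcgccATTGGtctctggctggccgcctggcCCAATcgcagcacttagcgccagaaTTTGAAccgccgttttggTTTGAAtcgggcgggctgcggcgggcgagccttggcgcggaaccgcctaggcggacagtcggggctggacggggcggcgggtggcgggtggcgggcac
Top2a: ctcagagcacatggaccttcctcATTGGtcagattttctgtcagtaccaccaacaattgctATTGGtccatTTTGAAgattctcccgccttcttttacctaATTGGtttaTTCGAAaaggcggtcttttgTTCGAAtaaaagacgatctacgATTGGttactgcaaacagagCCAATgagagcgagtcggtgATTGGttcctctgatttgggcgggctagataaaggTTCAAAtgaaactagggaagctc
Prc1: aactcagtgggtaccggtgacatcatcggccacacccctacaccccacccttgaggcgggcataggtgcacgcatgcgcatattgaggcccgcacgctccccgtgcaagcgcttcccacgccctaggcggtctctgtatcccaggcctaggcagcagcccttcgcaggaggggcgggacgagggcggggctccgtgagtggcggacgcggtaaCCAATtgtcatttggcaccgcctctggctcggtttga
Smc2: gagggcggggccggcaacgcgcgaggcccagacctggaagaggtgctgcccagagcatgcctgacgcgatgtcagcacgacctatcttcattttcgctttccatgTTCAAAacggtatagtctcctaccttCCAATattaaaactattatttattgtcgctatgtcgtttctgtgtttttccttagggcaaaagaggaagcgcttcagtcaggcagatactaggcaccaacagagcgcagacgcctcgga
Cenpf: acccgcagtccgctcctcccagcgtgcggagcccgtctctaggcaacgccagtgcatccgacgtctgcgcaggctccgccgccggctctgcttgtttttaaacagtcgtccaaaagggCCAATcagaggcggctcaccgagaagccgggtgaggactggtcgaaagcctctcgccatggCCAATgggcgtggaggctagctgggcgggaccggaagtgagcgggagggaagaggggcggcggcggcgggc
Ncapd2: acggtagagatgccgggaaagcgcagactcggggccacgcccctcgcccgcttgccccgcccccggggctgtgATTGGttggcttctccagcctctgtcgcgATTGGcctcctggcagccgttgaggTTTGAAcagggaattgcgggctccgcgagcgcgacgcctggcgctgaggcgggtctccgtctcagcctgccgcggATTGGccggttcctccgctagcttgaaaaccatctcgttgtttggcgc

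These windows differ in their make-up. The Top2a stretch holds 4 matches of the 6-base motifs and 6 CCAAT boxes, and the Mki67 stretch 2 and 3. Those of Prc1 and Cenpf show only CCAAT before the start. In Prc1 TTTGAA begins at position -5 and runs across the start, and in Cenpf it begins at position 3 after it. The log2 fold changes were -1.31 for Prc1 and -1.38 for Cenpf, beside -1.72 for Mki67 and -1.68 for Top2a. Smc2 and Ncapd2, each with 1 match of the 6-base motifs before the start, had smaller falls, at -0.78 and -0.90. Smc2 also holds TTTGAA on the opposite strand at position 27 after the start. No test of a relation between motifs and fold change was run. Over all members, 23 windows held at least 2 CCAAT boxes.

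Other genes of the same machinery, in 8 lists of genes that are not members, moved less uniformly. Of their 101 tested genes 47 fell and 0 rose by edgeR's quasi-likelihood test (67 were lower and 6 higher at an unadjusted p under 0.05), and DESeq2, limma-voom and ComBat-seq with limma also called 0 higher. The median log2 fold change was -0.48. Without the replicate block 0 were called lower by edgeR. With the block, 984 of all 18277 tested genes (5.38%) were called lower and 607 (3.32%) higher. In the same edgeR fit 6068 of all tested genes had an unadjusted p under 0.05, in either direction. The difference between these lists and the members was not tested.

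Regulators of entry into mitosis were nearest to the members, with 11 of 13 lower and a median log2 fold change of -0.93. Pbk, a mitotic kinase, fell by 1.37 ± 0.23 (SE), and Cdc25a, a Cdk-activating phosphatase with the highest level of the list, had a log2 fold change of -0.29 ± 0.10. Among checkpoint genes 3 of 7 fell. Kntc1, of the complex that recruits Mad1 and Mad2, fell by 1.19 ± 0.15, while Bub3, the most abundant, stood at 0.02 ± 0.07 and Mad2l1bp at 0.28 ± 0.13. In the kinetochore and constitutive centromere network list 14 of 26 fell, with a median of -0.70, and with replicate 1 left out 6 fell. Casc5, the scaffold Knl1, fell by 1.43 ± 0.17, and Zwint, the most abundant, had a log2 fold change of 0.19 ± 0.07, Mis18a 0.37 ± 0.14 and Cenpc1 0.12 ± 0.07. Cenps and Cenpx were not found by symbol.

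Of cohesin and its regulators 4 of 13 fell: Sgol1, which protects centromeric cohesin, fell by 1.30 ± 0.21, whereas Nipbl and Wapl, the loader and releaser of cohesin, had log2 fold changes of -0.03 ± 0.06 and 0.07 ± 0.07. Among 17 core and inhibitor genes of the anaphase-promoting complex 1 was called lower (5.88%, against 5.38% of all tested genes). This was Fbxo5, the inhibitor Emi1, which fell by 1.29 ± 0.21. Anapc1 and Anapc10 stood at -0.11 ± 0.06 and 0.00 ± 0.09, and Anapc16 at 0.46 ± 0.07, under the fold threshold. Condensin II had 2 of 3 lower, Ncapg2 fell by 0.95 ± 0.11 and Ncaph2 stood at -0.04 ± 0.07; with replicate 3 left out 1 was called. In the spindle and centrosome list 8 of 16 fell, and Depdc1a fell by 1.45 ± 0.25, while Ckap5, Numa1 and Psrc1 had log2 fold changes of -0.20 ± 0.06, 0.06 ± 0.07 and 0.32 ± 0.12. Of further cytokinesis genes 4 of 6 fell, Shcbp1 fell by 1.34 ± 0.17, and Rhoa and Sept7 stood at -0.16 ± 0.06 and -0.04 ± 0.07.

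For comparison, 11 of 12 mitotic kinesins fell, with a median log2 fold change of -1.32 beside the members' -1.23. Over all tested genes 5.38% were called lower. Kif11, the motor that separates spindle poles, fell by 1.45 ± 0.17 (SE). The exception was Kif22, at -0.36 ± 0.11, which passed the p threshold and was under the fold threshold. Of 44 genes of DNA replication and S phase 25 fell, with a median of -0.69. Tk1, thymidine kinase, fell by 1.75 ± 0.18. Rfc1, at -0.26 ± 0.07, passed the p threshold and was under the fold threshold. Gins3 and Gmnn had log2 fold changes of 0.27 ± 0.14 and 0.05 ± 0.13. Of 18 genes of the E2F, RB and MuvB families 4 fell, and E2f8 fell by 1.80 ± 0.24. Rbbp4, Rb1 and Lin52 stood at -0.17 ± 0.07, 0.28 ± 0.07 and 0.01 ± 0.13, and of these Rb1 passed the p threshold alone. Without the replicate block edgeR called 0 of the genes of these lists lower, and no test of the difference between lists was run.

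Cyclins, kinases and inhibitors of G1 were split, with 5 of 13 lower (3 with replicate 3 left out), 1 higher and a median log2 fold change of -0.43 (-0.231 without replicate 2 and -0.286 without replicate 3). Cdkn1a, the inhibitor p21 that blocks cyclin-dependent kinases, was at 159, 198 and 323 CPM in vehicle and at 316, 302.5 and 532 CPM in treated replicates 1, 2 and 3. Each treated culture was above its vehicle partner, and vehicle replicate 3 was above treated replicates 1 and 2. Cdkn1a rose, with a log2 fold change of 0.77 ± 0.08 (SE) (edgeR quasi-likelihood test, Benjamini-Hochberg adjusted p = 0.000491). Without the replicate block 0 genes were called higher or lower, Cdkn1a included. Cdkn2c, the inhibitor p18, fell by 1.08 ± 0.13 on the log2 scale, and Cdk4 stood at -0.07 ± 0.08.

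**Figure D4:**
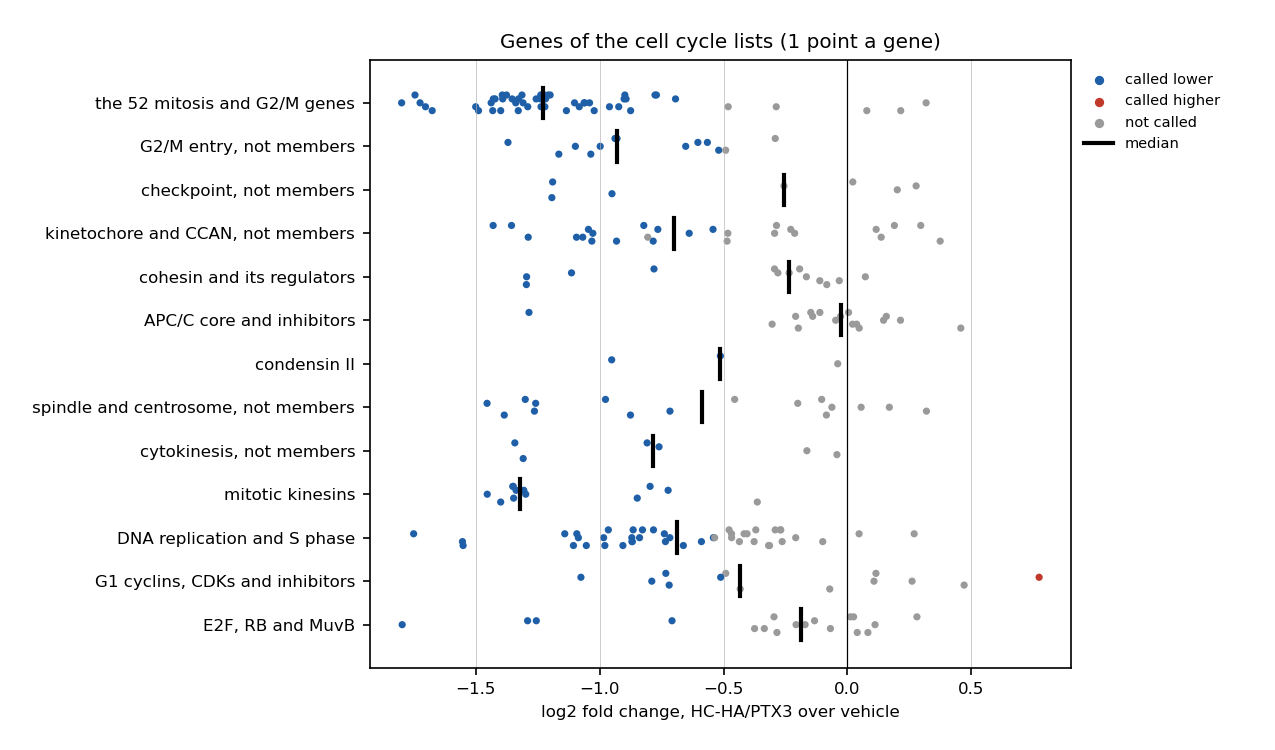
Log2 fold change (HC-HA/PTX3 over vehicle) of every tested gene of the members, the 8 related lists and the 4 comparison lists, with the median of each list. Medians run from -1.32 for the mitotic kinesins to -0.03 for the anaphase-promoting complex, beside -1.23 for the members.

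Markers of the cell types that such cultures can hold were read beside the members. Of 71 tested markers 11 fell (15.5%, against 5.38% of all tested genes). By DESeq2 6 fell, by edgeR without the replicate block 0, and no marker was at 0 in all cultures. The neuron list, led by Tubb3, summed to 10405, 8507 and 9642 CPM in vehicle and 10700.15, 9173 and 10952 CPM in treated replicates 1, 2 and 3. By edgeR's quasi-likelihood test 0 of 15 neuron markers were called (1 lower and 6 higher at an unadjusted p under 0.05), as by DESeq2, limma-voom and ComBat-seq with limma. Of all 18277 tested genes, 6068 had an unadjusted p under 0.05 by that edgeR test, in either direction. Uchl1 (0.3226, adjusted p = 0.00853) and Elavl4 (-0.2797, adjusted p = 0.0404) passed the p threshold of that edgeR test and were under the fold threshold, and the neuron sum was higher in each treated culture than in its vehicle partner. Fibroblast markers, led by Fn1, summed to 4433, 4365 and 2771 CPM in vehicle and 3053, 3115 and 1672 CPM in treated replicates. Of the 10, 5 fell (4 by DESeq2 or by ComBat-seq with limma, 3 with replicate 3 left out). The 5 were Col1a1, Col1a2, Col3a1, Postn and Fn1, named after their values were seen, and Col1a1 fell by 1.62 ± 0.17 (SE) on the log2 scale. The other 5 (Dcn, Lum, Pdgfra, Pdgfrb and Thy1) were not called, and the list's median log2 fold change was -0.409. Like the members, the fibroblast sum was lowest in replicate 3 of each group and lower in each treated culture than in its vehicle partner. The same held for the Schwann cell and mural cell sums given below. Satellite glia markers, led by Apoe, summed to 2344, 1371 and 568 CPM in vehicle and 2171, 1374 and 558 CPM in treated replicates. That list differed between replicate numbers far more than between treatments, and 1 of 10 fell (Atp1b2; 0 by DESeq2 and 0 without replicate 1 or 2). Fabp7 and Kcnj10, lower, and Glul, higher, passed the p threshold alone. Uchl1, Elavl4, Fabp7, Kcnj10 and Glul were named after their values were seen.

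Schwann cell markers, led by Ngfr, summed to 2033, 1709 and 1565 CPM in vehicle and 1973, 1606 and 1526 CPM in treated replicates. Mural cell markers, led by Rgs5, summed to 453, 521 and 419 CPM and to 403, 495 and 246 CPM, and 2 of 7 fell (Acta2 and Tagln; 0 by DESeq2, 1 without replicate 1). Another 2 mural markers were higher at an unadjusted p under 0.05, with log2 fold changes up to 0.5885 (Kcnj8), and without replicate 2 there was 1 called higher. Macrophage markers, led by Lyz2, summed to 81.3, 104 and 91.5 CPM and to 77.9, 109 and 72.1 CPM, and 2 of 10 fell (C1qa and Tyrobp; 1 by DESeq2 or without replicate 2, 0 without replicate 1 or 3), while 1 was higher at an unadjusted p under 0.05. Endothelial markers, led by Cdh5, summed to 266, 287 and 319.6 CPM and to 275, 323 and 291 CPM, with 0 of 8 called by edgeR, 0 at an unadjusted p under 0.05 and 0 by DESeq2, limma-voom or ComBat-seq with limma. T and B cell markers summed to between 0.633 and 1.12 CPM, led by Cd79a, and 1 of 6 was tested. Of all 18277 tested genes, 6068 had an unadjusted p under 0.05 by edgeR with the block, in either direction. The marker genes named in brackets here were chosen after their values were seen. The part of these cell types in the change of the mitosis genes was not tested.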

How the data were processed

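RNA of 6 mouse DRG neuron cultures was sequenced by the authors from ribosomal RNA-depleted, paired-end libraries. By the study's methods the authors mapped reads to mm10 with HISAT2, discarded those from ribosomal RNA and ran featureCounts on the rest; the header of each deposited table has RNA STAR instead, and the strand setting is not given in the sources used here. The deposited tables hold unnormalized counts of reads per gene, and all were used. Groups and replicate numbers were taken from the sample labels. A treatment for a shorter time was not analysed here.

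Tests ran in R 4.3.3, with edgeR 4.0.16 for the reported values and DESeq2 1.42.0, limma 3.58.1 and sva 3.50.0 (ComBat-seq) for alternatives. Of 35976 genes, 18277 passed filterByExpr with the treatment as group. Counts were scaled by TMM and tested with glmQLFit and glmQLFTest, with the replicate number as a block, and with the methods' thresholds (adjusted p 0.05, absolute log2 fold change 0.5). The methods name a design of batch plus condition; the replicate number was taken as the batch here, since the sources do not list which libraries formed one. SEs are the absolute log2 fold change divided by the square root of the F statistic. The pairing was checked: over the tested genes, each culture's deviation from its group mean was correlated with that of its namesake in the other group, at 0.631, 0.536 and 0.774 for replicates 1, 2 and 3, above the limit of 0.1, and unlike numbers gave -0.613 to 0.148, with 0.148 and 0.104 also above it; with the block 47 members were called lower, and with no replicate block 0. A gene's deviations add up to 0 within each group, so like numbers that correlate push unlike numbers towards negative values. The contrast between like and unlike numbers is therefore partly built in. No libraries of a group agreed within counting error. The fits were tested on simulated data. There ComBat-seq followed by limma, whose second step does not count the block it removed, called more unchanged genes than the other fits with the block did. The floor of 3 counts and the counting errors of ratios cover counting error only, while the SEs after ± also take in the spread between cultures.

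The members and lists were chosen with earlier results of these data known, and no set test was run. Calls within the Schwann cell list are not reported here. Named members are those with the highest mean CPM, the largest and the smallest log2 fold change in each of 9 roles, and every member without a call. Other lists give the highest level, largest fall, largest rise and smallest change. Gene positions are from GENCODE M21 (mm10), matched by symbol, and promoter sequences from RefSeq (GRCm38.p6). Alternatives were no block, other scalings (RLE, upper quartile, raw library sizes), no or a stricter filter (at least 10 counts), DESeq2, limma-voom, ComBat-seq with limma, thinned libraries, no fold threshold, and each culture or replicate number left out.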

Additional observations from a re-analysis of the deposited data

How the results depend on the processing

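With all 6 cultures and the replicate block, 47 members were called lower (48 without a fold threshold), the same 47 by DESeq2, limma-voom, RLE and upper-quartile scaling, either filter and thinned libraries, and by ComBat-seq with limma. With replicate 1, 2 or 3 left out and the block kept, 44, 48 and 49 were called, of which 44, 47 and 47 are among those 47. With no replicate block 0 members and 0 genes in all were called in either direction, and the counts over related, comparison and marker lists, alternatives chosen after seeing the data, were also 0; the block changed these calls, and the cause was not tested. Leaving out each culture (without the block) or replicate number (with it) gave 0 to 49 members, 0 to 989 lower and 0 to 582 higher genes in all, 0 to 44 related genes, 0 to 50 comparison genes and 0 to 10 markers lower; each of the 6 single cultures left out gave 0. Without replicate 1, 630 genes in all were lower and 248 higher. No fold threshold gave 2103 lower and 1402 higher genes, DESeq2 gave 373 higher genes and 6 markers lower, and ComBat-seq gave 1012 higher. The members' median log2 fold change ran from -1.49 without vehicle replicate 3 to -0.776 without vehicle replicate 1, and was -0.785 without HC-HA/PTX3 replicate 3. Members without a call changed sign in some leave-outs, over -0.286 to 0.469 for Cdkn3, -0.049 to 0.478 for Gtse1 and -0.745 to 0.123 for Ckap2. Of 396 values of 22 named members under other settings, 269 kept direction and call, 119 lost the call, none of them with the block, 3 gained it and 5 changed sign. The share of lower among all calls was 61.8%, 55.8% with upper-quartile scaling, 52.4% with ComBat-seq, 69.6% with DESeq2 and 71.8% without replicate 1. Each member had at least 29 counts in every culture. Of the members' log2 ratios within replicate numbers, the 3 of Cdkn3 and that of Pttg1 in replicate 2 were smaller than 2 counting errors.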
